A study of Mus musculus with 6 samples.

Results

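Kinesins are microtubule motors, and 39 of the 40 kinesin genes named by the rule were measured here in mouse blood progenitor cells with and without added HLX. The 40 are the kinesin superfamily apart from Cenpe, chosen by gene symbol in the array annotation, with the brightest single-symbol probeset taken for each gene by its mean over all 6 arrays. A probeset is the set of probes whose signals are summed to 1 level. The 39 stand among 19938 genes measured in this way. Kifc1 is the gene left out, because its probeset is shared with the near-identical Kifc5b. The family was picked from results of the same comparison that are already known, in which Kif1c stood out, so the differences below are a description and support nothing further.

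Marrow came from young adult wild-type FVB/nJ mice and was sorted for Lin-Kit+Sca-1+ cells, the fraction that holds stem cells and early progenitors. They received a lentivirus with GFP alone (control vector, 3 arrays) or with GFP and Hlx, a homeobox transcription factor gene (HLX vector, 3 arrays), in 8 µg/ml polybrene. All arrays came from GFP-positive cells sorted after 2 days in medium with serum, IL-3, IL-6 and SCF. The sources used here do not give the promoter that drives the insert, nor whether numbered replicates are separate mice. The p-values therefore reflect the spread among these arrays alone, which may be technical. The sample labels and the design text write the order of the construct's parts differently.

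The labels were checked first. Hlx lay at log2 levels of 6.99, 7.29 and 7.62 with the control vector and 10.75, 9.74 and 10.28 with the HLX vector, with no overlap. Kit, Cd34, Ptprc and the 4 other measured progenitor markers all lay above 6.37, the median of all probesets. Ly6a, the gene of Sca-1, was not analysed here. Markers were counted by their mean over all 6 arrays. Of those of other cell types, 1 of 5 for T and NK cells, 2 of 8 for mature myeloid cells and 2 of 4 for B cells lay above that median. So did 2 of 3 for erythroid cells and 3 of 6 for stroma and endothelium. The count mixes the groups. Itgam had a mean of 6.07 with control and 6.96 with HLX, Csf1r 6.37 and 7.74, and Cd8a 6.45 and 6.33. These levels carry no detection call. Array medians ran from 6.32 to 6.40. In bulk RNA, fewer cells of a type and less RNA per cell cannot be told apart.

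Kinesins hydrolyse ATP to move along microtubules or to take apart their ends. Mitotic kinesins build the spindle, align chromosomes and complete cytokinesis, and their genes are mostly transcribed late in the cell cycle of dividing cells. Transport kinesins carry vesicles, organelles and ciliary proteins, and several are known chiefly from neurons. The remaining members act in cilia, at centrioles, in signalling, or in ways less well defined. By these roles the measured family held 12 mitotic, 17 transport and 10 other members.

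No kinesin passed limma's test at an adjusted p under 0.05 over all genes, and the same count over all genes was 0 of 19938, or 0%. At an unadjusted p under 0.05 stood 2 of the 39, Kif1c and Kif18a, both higher with HLX, where 4.8% of all genes reached that p in either direction with 2.44% higher and 2.36% lower. The 2 members are 5.13% of the family, near the share of all genes. The 3 control arrays and the 3 HLX arrays did not overlap in 4 members, Kif1c, Kif18a, Kif20a and Kif2c, which is 10.3% of the family against 9.19% of all genes. All 4 were higher with HLX, where 4.34% of all genes did not overlap as higher and 4.85% as lower.

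The members differed by role in the sign of small differences. All 12 measured mitotic kinesins lay above 0, with a median log2 difference (HLX minus control) of 0.17. This count depends on the assignment of roles, and with Kif2a and Kif24 as mitotic it was 12 of 14, with a median of 0.15. Of the 17 transport kinesins 7 lay above 0, with a median of -0.063, and of the 10 other members 2 did, with a median of -0.071. Over all genes 47.5% lay above 0 and the median was -0.0078. Members of a role group share arrays and, for the mitotic genes, the cell cycle, so their signs are not independent. Apart from Kif1c and Kif18a, every member had an adjusted p from limma of 0.9999.

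**Figure D1:**
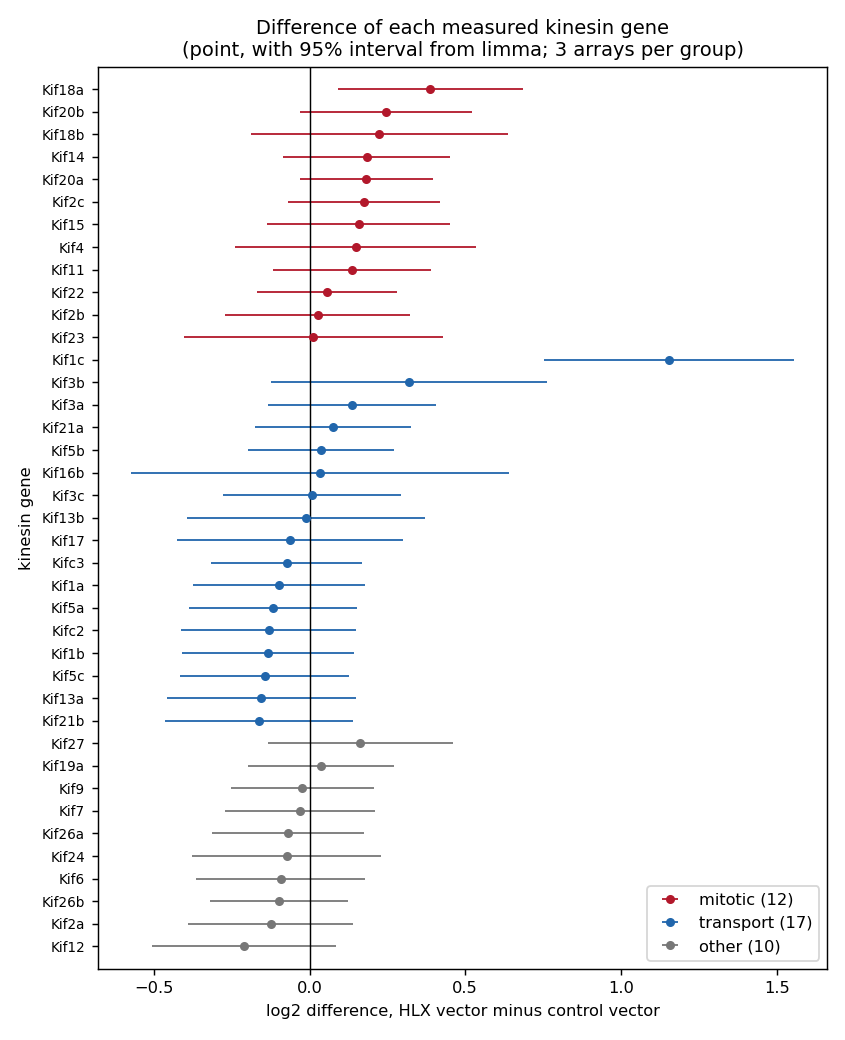
The log2 difference (HLX vector minus control vector, x axis) of the 39 measured kinesin genes, by role, with 95% intervals from limma over 3 arrays per group. All 12 mitotic members have points above 0, Kif1c lies far from every other member at 1.16, and the intervals of 37 members include 0.

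Kif18a, a motor that dampens the movement of kinetochore microtubules and aligns chromosomes, had the largest difference of the mitotic members. Its log2 levels were 7.39, 7.56 and 7.39 with the control vector and 7.83, 8.04 and 7.63 with the HLX vector. Every HLX array lay above every control array, the closest pair being HLX replicate 3 and control replicate 2. The difference was 0.39 ± 0.13 (SE, n = 3 per group), or 1.31-fold, with an adjusted p from limma of 0.932. Its paralogue Kif18b, which acts on astral microtubules, had levels of 8.01, 8.16 and 7.96 against 8.38, 8.55 and 7.88. There HLX replicate 3 was the lowest of all 6 arrays, and the difference was 0.22 ± 0.18. Without HLX replicate 2 it was 0.083, and without HLX replicate 3 it was 0.42.

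The kinesins of the central spindle and cytokinesis ran from 0.013 for Kif23 to 0.25 for Kif20b. Kif20a, which brings the chromosomal passenger complex to the central spindle, was the least variable of the mitotic members, with a within-group SD of 0.062. Its levels of 8.13, 8.20 and 8.18 with control and 8.28, 8.33 and 8.44 with HLX did not overlap, and the difference was 0.18 ± 0.091 (SE). Kif20b, a motor needed for abscission, had levels of 9.54, 9.79 and 9.56 against 9.76, 10.02 and 9.83. The groups overlapped through control replicate 2 and HLX replicate 1, and the difference was 0.25 ± 0.12. Kif14, which recruits citron kinase in cytokinesis, lay at 0.18 ± 0.11, and Kif4, a partner of Prc1 at the central spindle, at 0.15 ± 0.17. Without HLX replicate 1, where Kif4 stood at 8.87, its difference was -0.023. A pseudogene copy of Kif4 has probesets of its own on the array, so the level of Kif4 is uncertain to that extent.

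Kif23, the motor subunit of centralspindlin, was the member of this group nearest 0, at 0.013 ± 0.18. It was also the most variable, with levels of 9.45, 10.01 and 10.07 with control and 9.998, 9.81 and 9.76 with HLX. Control replicate 1 stood lowest, and the other 2 control arrays lay above every HLX array. Without control replicate 1 the difference was -0.19, and without HLX replicate 1 it was -0.059.

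Of the kinesins that act on spindle poles and chromosomes, Kif2c had groups that did not overlap. Kif2c encodes a depolymerase of centromeric microtubules, and its levels were 8.43, 8.46 and 8.50 with control and 8.55, 8.80 and 8.57 with HLX. The difference was 0.17 ± 0.10 (SE, n = 3 per group), with HLX replicate 2 apart from the other 2 HLX arrays, and it was 0.094 without that array. Kif11, which slides spindle microtubules apart, lay at 0.14 ± 0.11, and Kif15, which can share that task, at 0.16 ± 0.13. Kif22, a chromosome-bound motor, lay at 0.057 ± 0.096. Kif2b, at 0.026 ± 0.13, was the mitotic member with a mean level below the median of all probesets. Its difference was -0.089 without HLX replicate 3 and -0.0055 without control replicate 1. The shared probeset of Kifc1 and Kifc5b, outside the counts, differed by 0.085 ± 0.12.

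**Figure D2:**
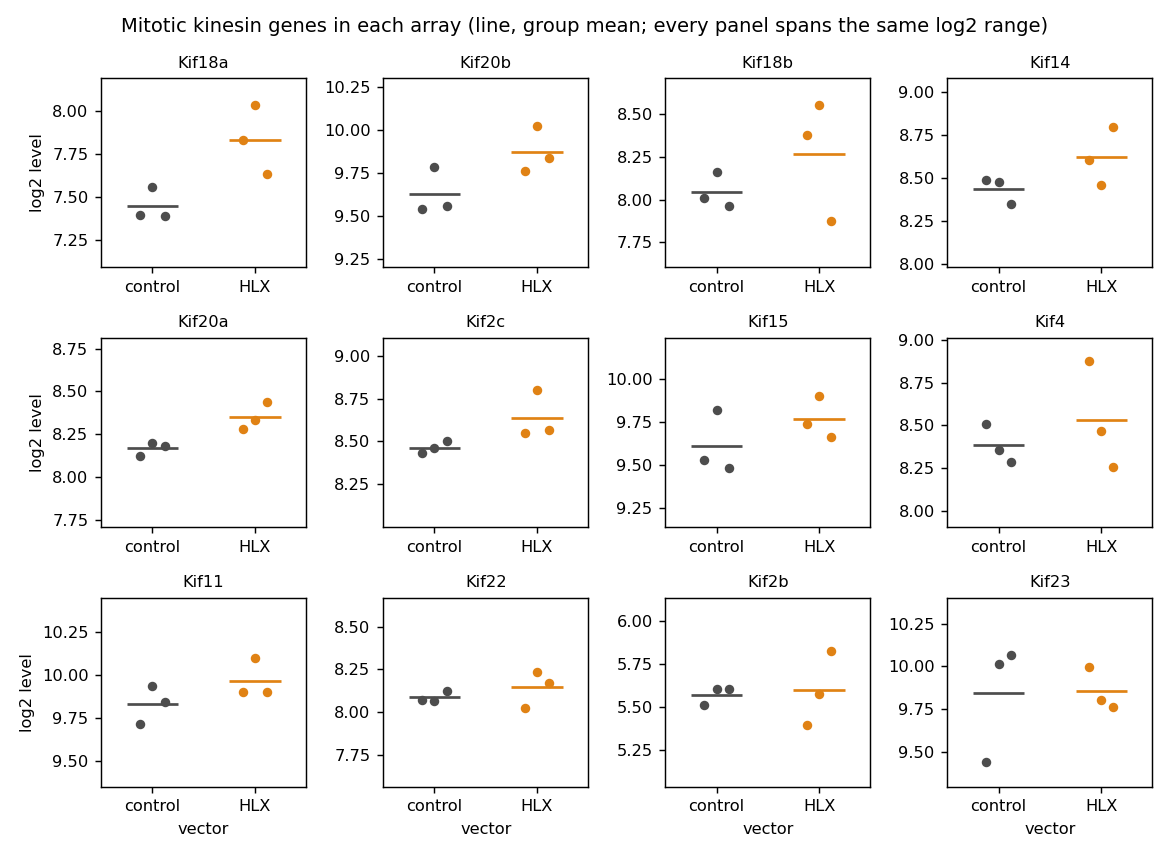
Log2 level (y axis) of the 12 measured mitotic kinesins in each of the 3 control and 3 HLX arrays, left to right by replicate, with the group mean as a line; every panel spans the same range. In Kif18a, Kif20a and Kif2c the groups do not overlap, and in Kif23 control replicate 1 stands apart at 9.45.

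The size of the mitotic difference rested partly on HLX replicate 2. In that array the 12 mitotic members had a median deviation of 0.16 from their own 6-array means, against 0.037 in HLX replicate 1 and 0.011 in HLX replicate 3. The control arrays lay at -0.14, -0.024 and -0.13. Without HLX replicate 2 the median difference of the mitotic members was 0.093 in place of 0.17, and all 12 still lay above 0. With a different single array left out, between 10 and 12 did, and the members that turned below 0 in such fits were Kif2b, Kif4 and Kif23.

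Mitotic and transport kinesins were then set against each other within each array. The median deviation of mitotic minus that of transport members was -0.15, 0.014 and -0.16 in the control arrays and 0.12, 0.13 and -0.00087 in the HLX arrays. The groups overlapped, since control replicate 2 lay above HLX replicate 3, and the difference of the means was 0.18 against a within-group SD of 0.086. With 1 array left out it ran from 0.14 to 0.26.

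**Figure D3:**
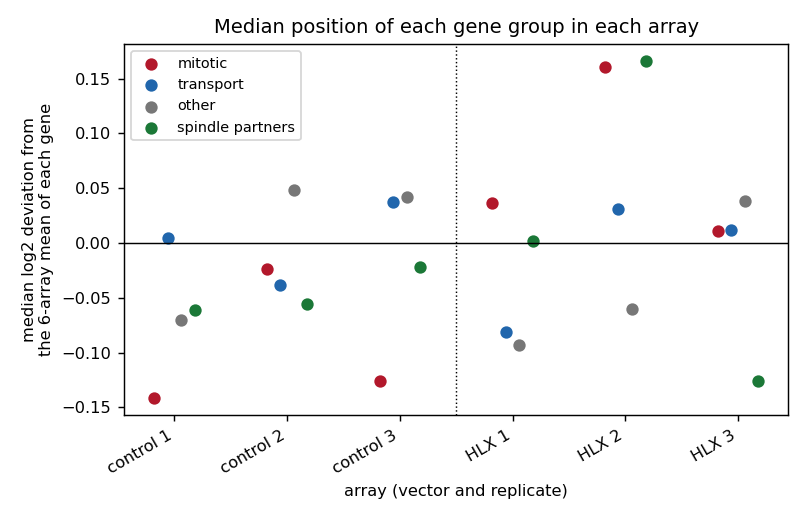
Median deviation of each gene group from the 6-array mean of its members (y axis, log2 units) in each array (x axis), for mitotic, transport and other kinesins and for the spindle partner list. The median of the mitotic members lies below 0 in the 3 control arrays and above 0 in the 3 HLX arrays, and is highest in HLX replicate 2 at 0.16. Single members differ, with 6 above their own mean in control replicate 2 and 7 in HLX replicate 3.

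Partners that work with the mitotic motors were mixed. Of 17 spindle partners on a list that holds Cenpe as well, 12 lay above 0, with a median of 0.095. The unadjusted p from limma was under 0.05 for 2 partners (11.8% of the list, against 4.8% of all genes). These were Prc1, the microtubule bundler of the central spindle (0.38 ± 0.12, SE), and Plk1, the mitotic kinase (0.36 ± 0.13), while Incenp, of the chromosomal passenger complex, lay at 0.30 ± 0.14. The groups did not overlap in these 3 and in Racgap1 (23.5% of the list, against 9.19% of all genes). Cenpe, the kinesin of kinetochores that the rule leaves out, differed by -0.0041 ± 0.17. The adjusted p from limma was 0.932 for Prc1 and 0.9999 for Plk1, Incenp and Cenpe. The median deviation of the spindle partners was -0.061, -0.056 and -0.022 in the control arrays and 0.0018, 0.17 and -0.13 in the HLX arrays. HLX replicate 2 was thus the highest of the 6 arrays, as for the mitotic kinesins. HLX replicate 3 was the lowest, where the mitotic kinesins were at 0.011.

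Promoters of the mitotic kinesins are shown because genes of this class are known for CCAAT boxes, bound by NF-Y, near a cell cycle gene homology region, read here as TTTGAA. The 250 bases before the annotated start of each gene were searched on both strands (RefSeq, GRCm38.p6), and 32 of the 40 members had an entry. CCAAT was found in 8 of 12 mitotic kinesins with an entry, Kifc1 among them (66.7%), in 3 of 11 transport kinesins (27.3%), in 4 of 9 other members (44.4%) and in 37.5% of all 27025 genes. TTTGAA was found in 5 of the 12 (41.7%), in 1 of the 11 (9.09%), in 2 of the 9 (22.2%) and in 18.3% of all genes. Starts were taken as annotated and were not checked for these cells, so a window need not be the promoter in use. The 150 bases nearest the start follow for 6 members, with matches to either motif, in either orientation, in capitals.
Kif11 (chr19:37376232-37376381, plus strand): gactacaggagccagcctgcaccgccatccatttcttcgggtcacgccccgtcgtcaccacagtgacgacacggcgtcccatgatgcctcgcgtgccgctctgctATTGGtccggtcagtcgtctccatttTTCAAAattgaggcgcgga
Kif22 (chr7:127042421-127042570, minus strand): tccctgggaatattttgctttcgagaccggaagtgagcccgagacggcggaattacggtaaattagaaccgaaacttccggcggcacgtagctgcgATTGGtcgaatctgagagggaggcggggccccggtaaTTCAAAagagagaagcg
Kif15 (chr9:122950931-122951080, plus strand): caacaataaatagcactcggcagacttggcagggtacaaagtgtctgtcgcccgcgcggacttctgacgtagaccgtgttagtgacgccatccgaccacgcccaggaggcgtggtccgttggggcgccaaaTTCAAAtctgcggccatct
Kif18b (chr11:102925125-102925274, minus strand): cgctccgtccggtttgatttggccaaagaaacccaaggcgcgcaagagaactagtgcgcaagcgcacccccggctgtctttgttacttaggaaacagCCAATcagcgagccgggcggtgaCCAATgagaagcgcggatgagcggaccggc
Kif18a (chr2:109280588-109280737, plus strand): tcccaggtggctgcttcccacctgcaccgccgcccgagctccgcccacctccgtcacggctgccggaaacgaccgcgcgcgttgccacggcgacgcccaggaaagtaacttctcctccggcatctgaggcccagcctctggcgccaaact
Kif1c (chr11:70700398-70700547, plus strand): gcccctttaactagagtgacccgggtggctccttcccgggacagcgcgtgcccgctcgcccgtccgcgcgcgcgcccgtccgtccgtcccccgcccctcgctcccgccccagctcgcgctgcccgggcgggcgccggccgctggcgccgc
In Kif11, Kif15 and Kif22 the TTTGAA match, which reads TTCAAA on the printed strand, began 19, 19 and 17 bases before the start. In Kif11 and Kif22 a CCAAT match, read as ATTGG, began 45 and 54 bases before it. Kif18b held a pair of CCAAT matches and no TTTGAA match. The windows of Kif18a and Kif1c, the members with the smallest p of their role groups, held neither, which says only that these letters were not there.

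Kif1c, a fast vesicle motor that carries integrins and is known for a part in podosomes of macrophages, had the largest difference of the family. In its brighter probeset (10377982) the log2 levels were 8.26, 8.18 and 7.69 with the control vector and 9.35, 9.02 and 9.23 with the HLX vector. The groups were far from overlapping, and control replicate 3 was the lowest of all. The difference was 1.16 (95% interval from limma 0.75 to 1.56), or 2.23-fold, which ranked 23 in size among the 19938 genes, and its adjusted p of 0.582 missed the threshold. With 1 array left out it ran from 0.98 to 1.27, with adjusted p from 0.497 to 0.835.

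The other Kif1c probeset (10377953) gave a smaller difference. Its levels were 6.96, 7.17 and 7.11 with control and 7.17, 7.33 and 7.60 with HLX, so that HLX replicate 1 fell just below control replicate 2. The difference was 0.28 ± 0.14 (SE, n = 3 per group), or 1.22-fold, and was 0.17 without HLX replicate 3 and 0.38 without HLX replicate 1. The mean of both probesets gave 0.72. Within each array the brighter probeset exceeded the other by 1.30, 1.01 and 0.58 log2 units with control and by 2.18, 1.69 and 1.63 with HLX. The probesets thus differed unequally between vectors, by 0.87 log2 units, and the HLX arrays were above the control arrays in this respect without overlap. The annotation lists 2 transcript records for the brighter probeset, both among the 5 listed for the other, so it does not assign them to different transcripts.

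**Figure D4:**
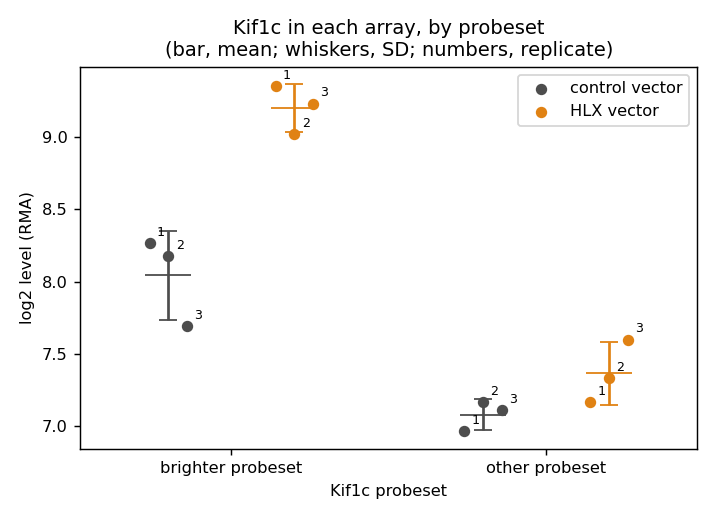
Log2 level (y axis) of the Kif1c probesets in each array, with the group mean, SD and replicate numbers. In the brighter probeset all HLX arrays lie above all control arrays, and in the other probeset HLX replicate 1 at 7.17 meets control replicate 2 at 7.17.

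Markers of mature myeloid cells lay on both sides of 0. Of the 8 measured, 5 lay above 0. Markers without overlap between the groups made up 62.5% of the list, against 9.19% of all genes. The groups did not overlap in 2 that were higher, Itgam (0.89 ± 0.22, SE) and Csf1r (1.36 ± 0.53). Neither passed after adjustment (adjusted p from limma 0.901 and 0.9999). Nor did the groups overlap in 3 granulocyte markers that were lower, Camp (-0.19 ± 0.10), Ly6g (-0.15 ± 0.095) and Ltf (-0.093 ± 0.090). Some of these gaps were narrow. Csf1r was at 6.28, 6.48 and 6.37 with control, so that HLX replicate 1 at 6.49 lay just above control replicate 2. In Ltf control replicate 1 at 5.069 lay just above HLX replicate 1 at 5.066. In Ly6g control replicate 1 at 4.881 lay just above HLX replicate 3 at 4.866. On the same list the macrophage marker Adgre1 (0.32 ± 0.18), S100a9 (0.17 ± 0.19) and S100a8 (0.071 ± 0.14) were higher, with overlap. Mean levels of Adgre1, Camp, Ly6g, Ltf, S100a9 and S100a8 lay below the median of all probesets. The summed unlogged level of the 8 was 373 to 395 in the control arrays and 474 to 845 in the HLX arrays, with Csf1r levels of 6.49, 7.80 and 8.92 in HLX replicates 1, 2 and 3. Without Csf1r the sum was 283 to 317 against 344 to 385, and Itgam was still in it. Itgam had log2 levels of 6.49, 5.72 and 5.99 with control and 7.24, 6.91 and 6.72 with HLX. A sum without both genes was not taken. None of the 8 was listed at 0, a value these log2 levels do not reach. The summed levels of progenitor markers (6072 to 6310 against 5453 to 6003) and of stromal and endothelial markers (774 to 820 against 691 to 746) were lower with HLX. Flt3 differed by -0.68 ± 0.16 and Pecam1 by -0.34 ± 0.11 (adjusted p from limma 0.901 and 0.932). Without Flt3 the first sum was 5448 to 5755 against 5006 to 5623, and without Cd34 it was 3652 to 4035 against 3369 to 3767. Without Pecam1 the second was 384 to 434 against 366 to 456. In each of these the groups then overlapped. These sums without 1 gene were added after the values were seen. The part of these cell types in the difference of Kif1c, or of the mitotic kinesins, was not tested.

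The other cargo motors lay closer to 0. Kif3b, a subunit of heterotrimeric kinesin-2 that also serves intraflagellar transport, had levels of 7.41, 7.59 and 7.79 with control and 8.00, 7.53 and 8.21 with HLX. HLX replicate 2 fell inside the control range, and the difference was 0.32 ± 0.19 (SE), or 0.51 without that array and 0.17 without HLX replicate 3. Its partner Kif3a lay at 0.14 ± 0.12 and Kif3c, an alternative partner, at 0.0084 ± 0.12. Kif21b, a motor that also pauses microtubule growth, had levels of 7.40, 7.55 and 7.47 against 7.06, 7.46 and 7.40. HLX replicate 1 was lowest and the difference was -0.16 ± 0.13, or -0.039 without it.

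Conventional kinesin heavy chains, which carry many kinds of cargo, lay near 0. Kif5b, the widely expressed heavy chain, differed by 0.037 ± 0.10 (SE, n = 3 per group) and had the lowest within-group SD of the transport members, 0.092. The neuronal heavy chain genes Kif5a and Kif5c lay at -0.12 ± 0.11 and -0.14 ± 0.12. Both, like Kif1a and Kif3c, which are also known from neurons, had mean levels under the median of all probesets, and so did 9 of the 39 members in all.

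Of all 39 kinesins 13 changed sign with 1 array left out, each of them within 0.15 of 0. Among the remaining transport members Kif16b, an endosomal motor, was the most variable kinesin, with a within-group SD of 0.41. Its levels were 7.88, 7.24 and 7.47 with control and 7.55, 8.05 and 7.09 with HLX, so that the HLX arrays enclosed the control range. Kif13a and Kif1b, both motors of vesicles, lay at -0.15 ± 0.13 and -0.13 ± 0.12, and the minus-end-directed Kifc2 and Kifc3 at -0.13 ± 0.12 and -0.073 ± 0.10. Kif21a (0.074 ± 0.11), Kif13b (-0.011 ± 0.16), Kif17 (-0.063 ± 0.16) and Kif1a (-0.098 ± 0.12) completed the group.

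Cargo adaptors and the opposing motor gave no call. Of 18 measured cargo partners 10 lay above 0, with a median of 0.0067, and none reached an unadjusted p under 0.05. The smallest p were those of the mitochondrial adaptor Trak1 (0.18 ± 0.095, SE) and of Mapk8ip3 (0.18 ± 0.10), whose groups did not overlap (11.1% of the list, against 9.19% of all genes). Hook3, an adaptor known to bind Kif1c, lay at -0.15 ± 0.21. Of 17 genes of cytoplasmic dynein and dynactin, which move toward microtubule minus ends, 9 lay above 0, with a median of 0.0059, and none reached that p. Dynll2 (0.20 ± 0.088), Dync1li2 (0.20 ± 0.096) and Dctn1 (0.22 ± 0.11) had the smallest p of that list, and in these 3 the groups did not overlap (17.6% of the list).

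The 10 kinesins with other roles had a narrow range, from -0.21 to 0.16. Kif12, the lowest, had levels of 6.31, 6.59 and 6.62 with control and 6.30, 6.16 and 6.43 with HLX. Control replicate 1 met the HLX range, and the difference of -0.21 ± 0.13 (SE) was -0.31 without that array. Kif27, a ciliary member and the highest, had levels of 4.79, 4.90 and 4.88 against 4.80, 5.03 and 5.23, with HLX replicate 3 apart. Its difference was 0.16 ± 0.13, or 0.058 without that array. Kif2a, a depolymerase of neurons and spindle poles, had levels of 10.34, 10.30 and 10.21 against 10.31, 10.18 and 9.98. HLX replicate 3 was lowest, and the difference was -0.12 ± 0.11, or -0.035 without it and -0.20 without HLX replicate 1.

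The rest of this group lay within 0.1 of 0. Kif7, a regulator of Hedgehog signalling at the tip of cilia, was at -0.030 ± 0.10 (SE) and Kif24, a depolymerase at centrioles, at -0.073 ± 0.13. Kif26a and Kif26b, which lack motor activity and act in signalling, were at -0.069 ± 0.10 and -0.097 ± 0.094. Kif6, Kif9 and Kif19a, known from motile cilia, were at -0.092 ± 0.12, -0.024 ± 0.098 and 0.037 ± 0.10. Second probesets differed by 0.34 in Kif14, -0.23 in Kif6, 0.052 in Kif7 and 0.11 in Kif26b, and the sign was opposite to that of the brighter probeset in Kif7 and Kif26b.

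How members of a role group varied together from array to array is given as a description. Over deviations from the group means in 6 arrays, the median Pearson correlation was 0.19 over 66 pairs of mitotic kinesins, 0.011 over 136 pairs of transport kinesins and 0.30 over 45 pairs of the other members. Single pairs ran from -0.96 to 0.97, from -0.95 to 0.99 and from -0.95 to 0.94. Pairs of a mitotic with a transport kinesin had a median of 0.031 over 204 pairs. These deviations share arrays and have 4 degrees of freedom. The median over pairs of all genes was not taken, so the values have no background beside them.

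**Figure D5:**
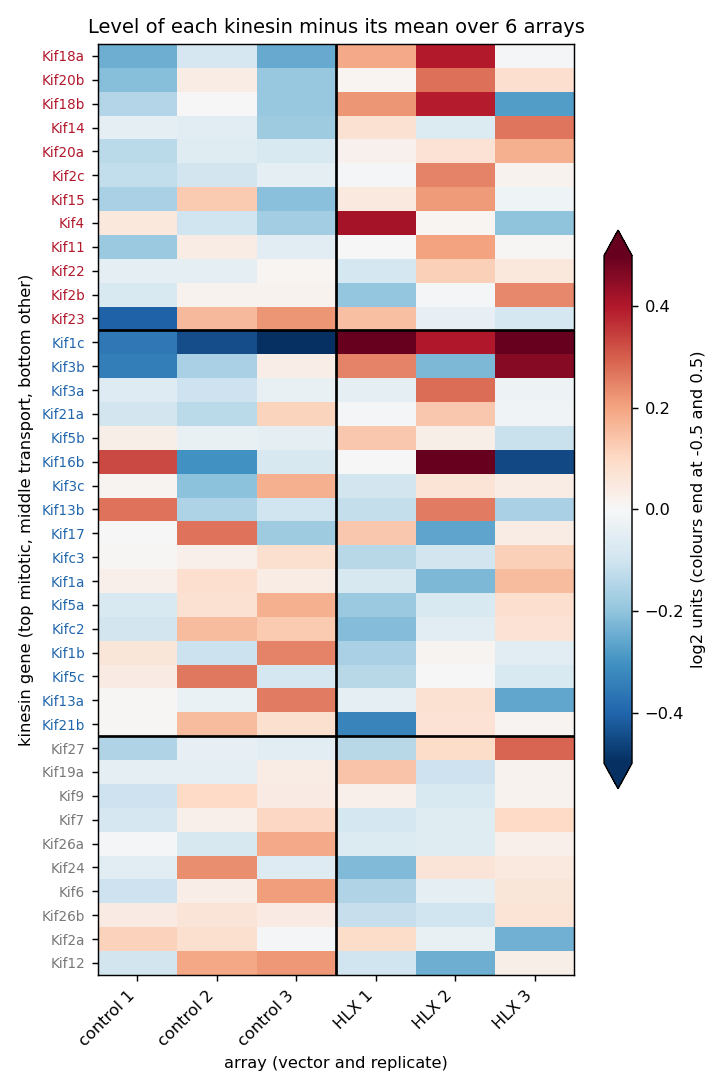
Level of each kinesin minus its mean over the 6 arrays (colour, log2 units, ending at -0.5 and 0.5), with genes as rows by role and arrays as columns. The mitotic block is mostly below 0 in control replicates 1 and 3 and above 0 in HLX replicate 2, and Kif1c is below 0 in the 3 control arrays and above 0 in the 3 HLX arrays.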

How the data were processed

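RNA of 5000 to 10000 sorted cells per sample was extracted, 3 ng was amplified by a whole-transcriptome method and the product was hybridised to Affymetrix arrays, per the labels' protocols. Per the submitters' processing notes, the authors used Affymetrix Power Tools 1.178 with RMA, and the deposited values are log2 levels, 1 per probeset and array. The sources used here give no genome build for the probesets. RMA in general normalizes between arrays, so a shift common to most genes is largely removed. Depth does not apply, and the number of arrays limits the precision.

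Of 35556 probesets, 21789 had 1 gene symbol in the platform annotation, 1621 several and 12146 none. All 39 members matched RefSeq symbols (GRCm38.p6). HLX and control vector were compared in R 4.3.3 by the 2-sided moderated test of limma 3.58.1 (eBayes after lmFit), p-values were adjusted over 19938 genes by Benjamini-Hochberg, and no filter was applied. The code was tested on simulated data. SE is limma's moderated SE. Probesets left out of that fit were fitted with all probesets. Figures used matplotlib 3.10.9 in Python 3.11.15.

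Values in every array are given for both Kif1c probesets, for members at an unadjusted p under 0.05 or without overlap, for the 3 largest differences of each role group, and for Kif23 and Kif16b, added after their spread was seen. From each partner list at most the 3 smallest p are named, and Hook3 and Cenpe were added. Members, role groups, lists and motifs were chosen with earlier results of these data known.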

Additional observations from a re-analysis of the deposited data

How the results depend on the processing

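The alternatives were median centring, quantile normalization, cyclic loess, a trended and robust variance prior, array weights, genes above the median level alone, the mean of a gene's probesets, the replicate number as a block, each array left out, both arrays numbered 1 left out, and Kif2a and Kif24 counted as mitotic. Kinesins called at the adjusted threshold were 0 in each. Kinesins at an unadjusted p under 0.05 numbered 1 to 3 with 1 array left out, and Kif1c alone stood there without both arrays numbered 1. Kif18a was not among them without control replicate 1, control replicate 3 or HLX replicate 2. Kif12, lower with HLX, was among them without control replicate 1, and Kif3b, higher, without HLX replicate 2. With 1 array left out the mitotic median difference ran from 0.093 to 0.19, that of transport members from -0.081 to -0.022, that of mitotic minus transport from 0.14 to 0.26 and that of Kif1c from 0.98 to 1.27. The transport median was -0.011 among the 13 members above the median level, a subset that depends on level. Mitotic members above 0 were 11 of 12 with quantile normalization or array weights. With Kif2a and Kif24 as mitotic, mitotic minus transport was 0.13 in place of 0.18. Scaling moved the median of all genes by at most 0.022. With the replicate block 3 kinesins stood at an unadjusted p under 0.05 (Kif1c, Kif18a, Kif20b) and 0 were called. Deviations of same-numbered arrays correlated at 0.20, 0.0085 and 0.14 for replicates 1, 2 and 3. The highest correlations of those control arrays with a differently numbered HLX array were 0.043, 0.11 and -0.058. The main fit took no pairs, and whether same-numbered arrays belong together is not given. Precision is limited by 3 arrays per group, with a median within-group SD of the members of 0.14.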
